A study of Caenorhabditis elegans with 33 samples.

Results

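Gene expression in whole *Caenorhabditis elegans* was compared between worms that ate a purH mutant of *Escherichia coli* and worms that ate BW25113, the laboratory strain used as the control diet. The comparison rests on 6 of the 33 libraries of the series, chosen by their titles: 3 from the purH diet and 3 from the BW25113 diet. The other 27 libraries come from 9 other mutant diets with 3 libraries each. All worms were of the wild-type strain N2 and were synchronized adults. Total RNA of the whole body was extracted with Trizol and sequenced on a DNBSEQ instrument. The 2 diets differ, as far as the labels say, only in the bacterial strain. The labels name neither the day of adulthood nor the number of animals per library, and do not say whether replicates came from separate cultures. Unless said otherwise, each p-value rests on the spread among replicate libraries, estimated jointly over all diets of the series. That spread may thus be technical. The series title names the social behavior of the host as the subject of the study. Bacterial RNA was not analysed here, so the mutation in purH could not be checked against the data.

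In *E. coli*, purH encodes a bifunctional enzyme that carries out the last steps of purine synthesis, from AICAR (an intermediate that is also an analogue of AMP) to IMP, the precursor of AMP and GMP. The step uses a formyl group from folate, which ties purine synthesis to one-carbon metabolism. *C. elegans* feeds on bacteria, carries its own version of the enzyme (atic-1) and can also recover purine bases from its food by salvage.

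The 3 purH libraries held 20.8, 22.1 and 20.5 M expected counts (M, 1e6 estimated reads) and the 3 BW25113 libraries 22.4, 22.3 and 22.5 M. Genes above 0 numbered 16460, 16407 and 15309 in the purH libraries, against 15844, 15390 and 15816 in the BW25113 libraries. purH replicate 1 stood apart from the other 5 libraries. Its scaling factor (TMM, which sets libraries to a common level through genes of moderate difference) was 1.90, the highest of the 33 libraries, against 1.11 and 0.684 in purH replicates 2 and 3. The factors of the BW25113 libraries were 0.766, 0.731 and 0.861. Pearson correlations of log2 CPM across genes (CPM, counts per 1e6 after scaling) were 0.821 and 0.869 between purH replicate 1 and purH replicates 2 and 3. purH replicates 2 and 3 had 0.960 with each other. purH replicate 1 had 0.921, 0.910 and 0.870 with the 3 BW25113 libraries. Among all libraries it was most like the 2 libraries ycdC replicates 1 and 2, at 0.956 and 0.948. These correlations run across genes of single pairs of libraries, and genes are not independent replicates.

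The difference of purH replicate 1 ran with transcript length. Among 6695 genes with a mean log2 CPM of at least 3, each gene's log2 CPM was set against its mean over the 33 libraries. In genes with a spliced length of up to 500 nt, the median deviation was 0.36 in purH replicate 1, -0.23 in replicate 2 and 0.33 in replicate 3, against 0.14, 0.16 and -0.20 in the BW25113 libraries. In genes over 4000 nt it was -0.99, 0.28 and -0.03 in the purH libraries, against -0.11, 0.33 and 0.73 in the BW25113 libraries. The gap between long and short genes in purH replicate 1 (-1.35) was the second lowest of the 33 libraries, next to ycdC replicate 2 (-1.38). purH replicate 1 lay above the other 5 libraries for 36% of the genes tested and below them for 31.4%. For each of the other 5 libraries the same shares were between 8.30% and 20.8% above and between 11.9% and 14.0% below. The part of RNA quality, library preparation and the animals in this pattern was not tested. Results are therefore given with all 6 libraries and again without purH replicate 1.

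**Figure D1:**
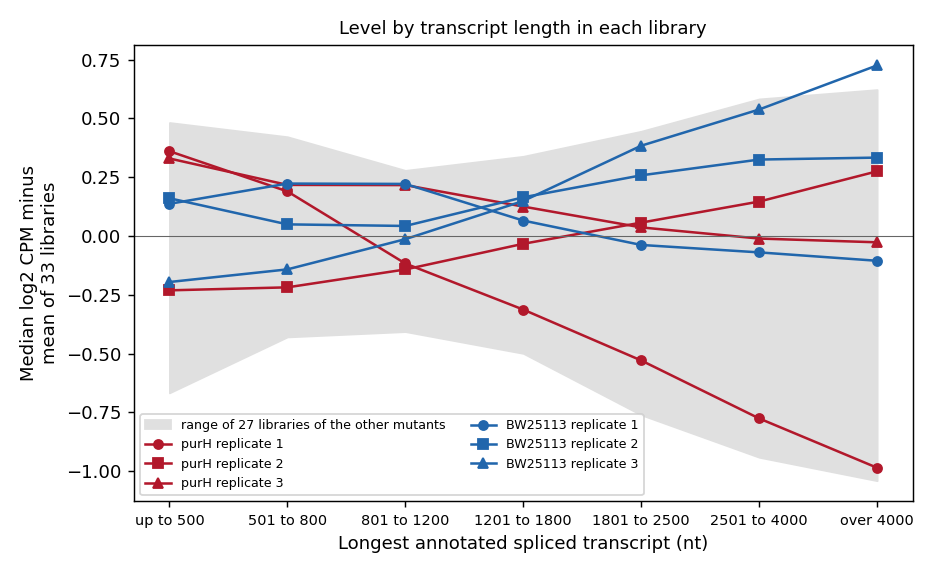
Median deviation of log2 CPM from the mean over 33 libraries (y axis) by class of spliced length in nucleotides (x axis), 1 line for each of the 3 purH and 3 BW25113 libraries. purH replicate 1 lies at 0.36 in the shortest class and at -0.99 in the longest, where BW25113 replicate 3 lies at 0.73.

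No gene passed the test between the purH and the BW25113 diet. Counts of 14695 genes were fitted over all 33 libraries with edgeR's quasi-likelihood test, and 0 genes (0% of those tested) had a Benjamini-Hochberg adjusted p under 0.05. The smallest adjusted p was 0.572. Without purH replicate 1 the count was also 0, with a smallest adjusted p of 0.576. At an unadjusted edgeR p under 0.05, 798 genes (5.43%) were higher and 255 (1.74%) lower on the purH diet. Between the 3 purH and the 3 BW25113 libraries there was no overlap for 873 genes (5.94%) higher on the purH diet and for 821 (5.59%) lower. The median log2 fold change (purH over BW25113) over all genes was 0.18, with 60.9% of genes above 0. Without purH replicate 1 the median was 0.01, with 50.8% above 0. Both figures are the background against which the gene lists are read below. The unadjusted split without purH replicate 1 was 1025 higher (6.92% of 14808 genes) and 227 lower (1.53%), and 465 genes were under 0.05 in both fits. The 1053 genes under 0.05 in either direction became 2199 without purH replicate 3 and 556 without BW25113 replicate 2. DESeq2, also fitted over all 33 libraries, called 3 genes between the 2 diets: cyp-35A3, cyp-35A4 and gtf-2H2C, all lower on the purH diet.

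Of 621 genes with separate groups, a mean of at least 5 CPM and a letter-and-number symbol, those with the lowest p on the higher side included an antimicrobial peptide, a collagen-modifying enzyme and an enzyme of tryptophan breakdown. None passed the adjusted test (edgeR, Benjamini-Hochberg adjusted p 0.572 for each), so their values are a description. cnc-8 (chromosome X, 10306595 to 10306951, here and below in build WBcel235), which encodes a caenacin antimicrobial peptide, had 54, 16.2 and 22.4 CPM in purH replicates 1 to 3, against 10.7, 13.7 and 9.71 CPM in BW25113 replicates 1 to 3. Its log2 fold change was 1.44 ± 0.43 (SE), with purH replicate 1 far above the others, and 0.80 ± 0.43 without that library. phy-2 (IV, 12211097 to 12215987) encodes a catalytic subunit of prolyl 4-hydroxylase, which modifies collagens. It had 14.6, 11.0 and 8.43 CPM in the purH libraries, against 5.25, 5.39 and 6.20 CPM in the BW25113 libraries, a log2 fold change of 1.02 ± 0.34. kynu-1 (X, 6106927 to 6109338), which encodes kynureninase, had 25.7, 32.7 and 30.8 CPM in the purH libraries and 14.6, 19.9 and 21.1 CPM in the BW25113 libraries. Its log2 fold change of 0.68 ± 0.24 was 0.82 ± 0.27 without purH replicate 1, so the separation did not rest on that library. In the libraries of the other mutant diets kynu-1 had a median of 30.5 CPM, with a range of 19.6 to 38.3 CPM.

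The remaining 5 genes of the higher side were nas-30, tag-297, clec-258, sfxn-2 and ugt-44. ugt-44 (IV, 10469741 to 10471899), a member of the glucuronosyltransferase family of detoxification enzymes, had 31.3, 22.1 and 13.5 CPM in the purH libraries, against 9.68, 8.27 and 6.51 CPM in the BW25113 libraries. sfxn-2, a sideroflexin of the mitochondrial inner membrane, had 6.91, 7.82 and 5.50 CPM on the purH diet and 3.61, 3.55 and 3.51 CPM on the BW25113 diet. Its BW25113 libraries lay unusually close together, and its exons overlap those of dct-1, so reads of the pair may be confused. clec-258, a C-type lectin, had 6.58, 12.62 and 8.64 CPM on the purH diet and 3.67, 1.23 and 0.517 CPM on the BW25113 diet. nas-30, an astacin metalloprotease, had 6.27, 20.2 and 6.14 CPM on the purH diet and 2.62, 2.21 and 3.98 CPM on the BW25113 diet. For nas-30 and tag-297 (5.13, 23.3 and 6.57 CPM on the purH diet, 3.96, 2.39 and 2.43 CPM on the BW25113 diet), purH replicate 2 was the high library.

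On the lower side, the 8 genes with the lowest p were sup-26, mec-8, hil-2, aqp-2, tlp-1, coh-1, bed-2 and coel-1. sup-26 (III, 4276196 to 4280224), an RNA-binding protein, had 20.9, 54.3 and 74.4 CPM in the purH libraries, against 220.3, 179.6 and 135 CPM in the BW25113 libraries, a log2 fold change of -1.84 ± 0.62, and -1.43 ± 0.62 without purH replicate 1. mec-8 (I, 9441010 to 9444227), a regulator of splicing, had 9.42, 15.8 and 20.7 CPM on the purH diet and 48.3, 49.8 and 33.2 CPM on the BW25113 diet. hil-2 (IV, 6294240 to 6295217), a linker histone, had 40.4, 62.9 and 109.9 CPM on the purH diet and 190.5, 230.3 and 166 CPM on the BW25113 diet. In sup-26, mec-8 and hil-2 purH replicate 1 was the lowest of the 6 libraries, but the other 2 purH libraries also lay below every BW25113 library.

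The water channel gene aqp-2 (II, 9259048 to 9261981) had 69.4, 63.8 and 92.5 CPM in the purH libraries, against 353, 209 and 128 CPM in the BW25113 libraries, a log2 fold change of -1.61 ± 0.58. Here purH replicate 1 did not stand apart, and the value without it was -1.51 ± 0.63. In the libraries of the other mutant diets aqp-2 had a median of 92.3 CPM, with a range of 41.1 to 297 CPM. tlp-1, a zinc finger transcription factor, had 7.67, 13.1 and 11.6 CPM on the purH diet and 26.6, 23.6 and 20.2 CPM on the BW25113 diet. coh-1, a cohesin subunit, had 5.71, 12.1 and 11.5 CPM on the purH diet and 20.2, 23.7 and 28.6 CPM on the BW25113 diet. The last 2 genes were bed-2, with 12.57, 34.2 and 45.1 CPM on the purH diet and 87.7, 77.3 and 63.2 CPM on the BW25113 diet, and coel-1, with 5.08, 5.01 and 4.86 CPM on the purH diet and 13.8, 17.5 and 5.94 CPM on the BW25113 diet. All 8 had an adjusted p of 0.572 in the edgeR test.

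**Figure D2:**
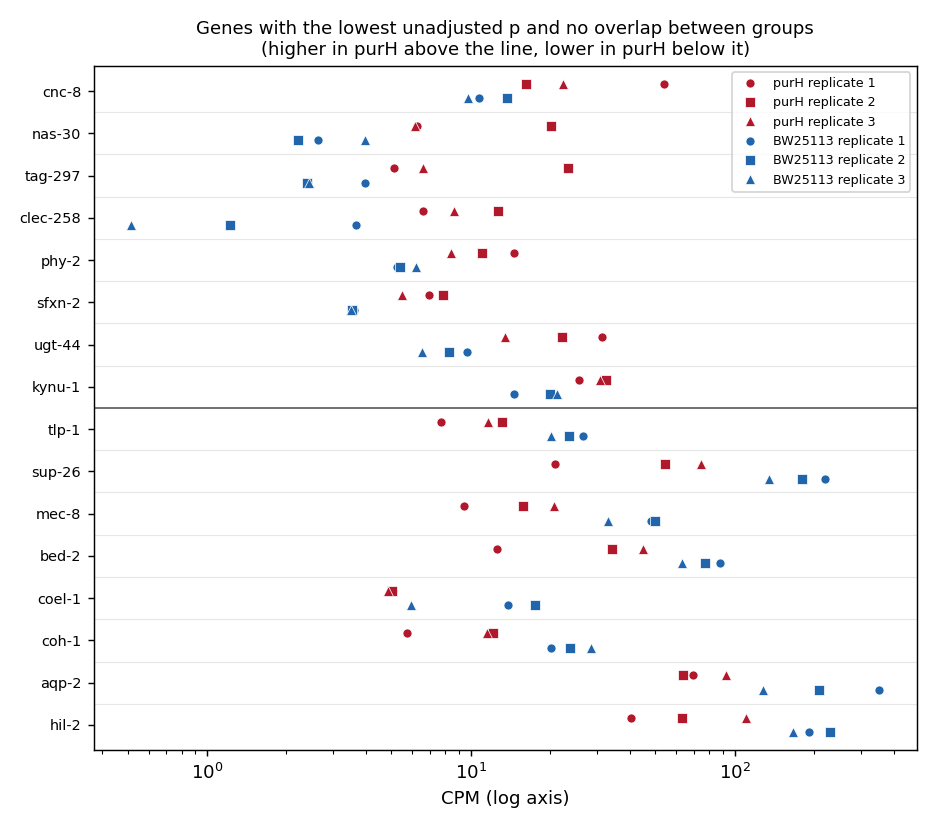
CPM on a log axis (x axis) in each of the 3 purH and 3 BW25113 libraries for the 8 genes with the lowest p on each side among genes whose groups did not overlap (y axis, 1 row per gene). Groups separate in every row because separation was part of the choice, and purH replicate 1 is the outermost purH library for cnc-8 and sup-26 but not for aqp-2.

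The worm's own purine synthesis genes gave no common direction. The list holds 10 genes, all tested. Its member pacs-1 was listed by symbol alone, and nothing used here shows it to be a purine synthesis gene. With a log2 fold change of -0.19 it counts among the genes below 0. 4 were above 0 and 6 below in log2 fold change, with a median of -0.04, and 0 passed the adjusted test. At an unadjusted p under 0.05 there were 0 in either direction. In purH replicate 1, 6 of the 10 were lower than in the other 5 libraries. Without that library 8 were above 0 and 2 below, with a median of 0.30, and again 0 were under 0.05 unadjusted. Without 1 of the other 5 libraries the median was between -0.19 (without purH replicate 2) and 0.17 (without BW25113 replicate 3), so its direction turned with single libraries.

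atic-1 (IV, 7882026 to 7900257), the worm's counterpart of bacterial purH, had 20.8, 21.5 and 30.9 CPM in the purH libraries, against 18.5, 13.5 and 17.6 CPM in the BW25113 libraries. Every purH library lay above every BW25113 library, by a narrow margin for replicate 1. The log2 fold change was 0.56 ± 0.28 (edgeR p 0.0594 unadjusted, 0.572 adjusted), and 0.70 ± 0.37 without purH replicate 1. In the libraries of the other mutant diets atic-1 had a median of 22.4 CPM, with a range of 14.3 to 31.1 CPM. Its exons overlap those of arp-11, and the labels do not say whether counting used the strand. ppat-1, which encodes the amidotransferase of the first committed step, had 6.88, 5.25 and 6.64 CPM on the purH diet and 4.08, 1.65 and 4.60 CPM on the BW25113 diet. It was the other member whose groups did not overlap (log2 fold change 0.86 ± 0.62). Over all genes, 5.94% were higher on the purH diet with no overlap.

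Other members of the list overlapped between diets. F38B6.4, the trifunctional enzyme that uses folate early in the pathway, had 3.53, 14.7 and 13.3 CPM on the purH diet and 4.08, 6.86 and 16.6 CPM on the BW25113 diet. pfas-1, another enzyme of the early steps, had 4.67, 25.6 and 24.1 CPM on the purH diet and 13.9, 15.6 and 22.8 CPM on the BW25113 diet. In both genes the low purH value came from replicate 1. pacs-1, not shown here to belong to the pathway, had 20.5, 28.3 and 18.5 CPM on the purH diet and 14.2, 25.4 and 37.4 CPM on the BW25113 diet. adsl-1, adenylosuccinate lyase, had 20.3, 39.1 and 49 CPM on the purH diet and 35, 38.7 and 46.5 CPM on the BW25113 diet. R151.2, which makes the ribose phosphate donor PRPP, had nearly equal means of 119.6 ± 9.34 CPM on the purH diet and 120.2 ± 24.7 CPM on the BW25113 diet (SD, n = 3 each).

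The enzymes that lead from IMP to AMP and GMP were lowest in purH replicate 1. adss-1 (V, 4818763 to 4823423), adenylosuccinate synthetase on the way to AMP, had 37.3, 222 and 413 CPM in the purH libraries, against 381, 379 and 272 CPM in the BW25113 libraries. Its log2 fold change of -0.62 ± 0.53 was -0.08 ± 0.41 without purH replicate 1. T22D1.3, the IMP dehydrogenase on the way to GMP, had 25.9, 74.2 and 103 CPM on the purH diet and 68.3, 71.5 and 75.2 CPM on the BW25113 diet. gmps-1, GMP synthetase, had 22.9, 61.2 and 72.3 CPM on the purH diet and 56.4, 59.0 and 57.9 CPM on the BW25113 diet. For both GMP enzymes purH replicate 1 was the lowest of the 6 libraries, and the log2 fold changes of -0.08 and -0.15 were 0.35 and 0.25 without it.

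In the purine salvage and breakdown list, 8 genes were tested, 5 above 0 and 3 below. The median log2 fold change was 0.29 (0.35 without purH replicate 1). The median was 0.13 without BW25113 replicate 2. The list includes ada-2 by symbol alone, and nothing used here shows it to be a purine gene. With a log2 fold change of 0.37 it counts among the genes above 0. 0 passed the adjusted test, and 2 were higher at an unadjusted p under 0.05, against 5.43% of all genes. hprt-1 (I, 14657355 to 14661495), the hypoxanthine-guanine phosphoribosyltransferase that returns these bases to IMP and GMP, had 32.4, 22.8 and 38.6 CPM in the purH libraries, against 16.8, 4.23 and 4.13 CPM in the BW25113 libraries. The groups did not overlap, although BW25113 replicate 1 lay nearer to the purH libraries than the other 2 did. The log2 fold change was 1.90 ± 0.92 (edgeR p 0.0482 unadjusted, 0.572 adjusted), and 1.90 ± 1.05 without purH replicate 1. In the libraries of the other mutant diets hprt-1 had a median of 21.1 CPM, with a range of 0.184 to 72.4 CPM. xdh-1 (IV, 14401114 to 14412894), the xanthine dehydrogenase that takes purines to uric acid, had 7.52, 10.1 and 7.93 CPM on the purH diet and 3.32, 4.41 and 5.12 CPM on the BW25113 diet. Its log2 fold change was 0.99 ± 0.36 (edgeR p 0.0114 unadjusted, 0.572 adjusted), and 1.12 ± 0.44 without purH replicate 1. In the libraries of the other mutant diets xdh-1 had a median of 6.59 CPM, with a range of 3.16 to 11.7 CPM. hprt-1 and xdh-1 were the 2 members of this list with no overlap between diets. Both were higher on the purH diet, against 5.94% of all genes higher with no overlap.

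The other members overlapped. adk-1, adenosine kinase, had 62.2, 321 and 539 CPM on the purH diet and 405, 490.3 and 458 CPM on the BW25113 diet. ampd-1, AMP deaminase, had 15.5, 67.8 and 79.4 CPM on the purH diet and 47.3, 50.3 and 73.5 CPM on the BW25113 diet. pnp-1, purine nucleoside phosphorylase, had 31.4, 73.7 and 93.1 CPM on the purH diet and 77.4, 70.8 and 50.7 CPM on the BW25113 diet. In these 3 genes purH replicate 1 was again the lowest library. T19B4.3, adenine phosphoribosyltransferase, had 28.12, 23.5 and 26.9 CPM on the purH diet and 21.5, 16.7 and 23.5 CPM on the BW25113 diet. The deaminase-like gene adal-1 went the other way, with 92.7 CPM in purH replicate 1, above the other 5 libraries. The same held for the listed gene ada-2, with 27.9 CPM in purH replicate 1. Per length, in the authors' deposited TPM, adk-1 was far above xdh-1 in level, with 204 ± 113 TPM on the purH diet and 276 ± 51.9 TPM on the BW25113 diet (SD, n = 3 each). xdh-1 had 2.15 ± 0.856 TPM on the purH diet and 0.803 ± 0.280 TPM on the BW25113 diet.

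**Figure D3:**
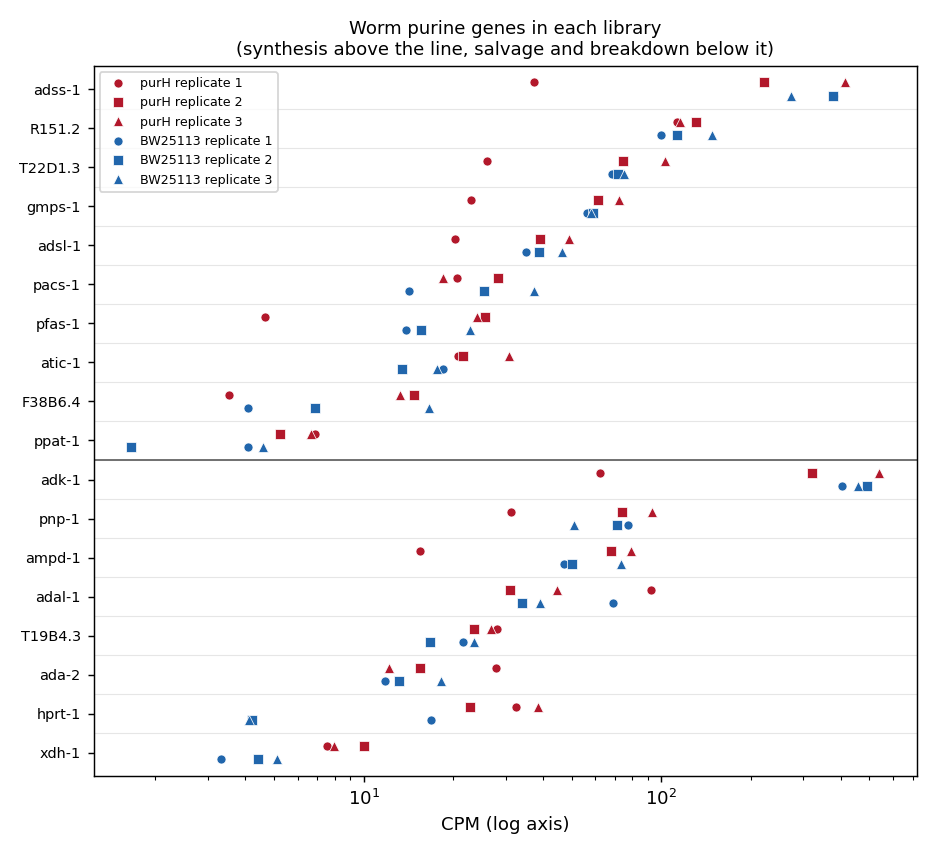
CPM on a log axis (x axis) of each member of the lists of purine synthesis and of purine salvage and breakdown (y axis, 1 row per gene) in the 3 purH and 3 BW25113 libraries. The 2 diets separate for atic-1, ppat-1, hprt-1 and xdh-1, and purH replicate 1 is the lowest point for adss-1, adk-1, ampd-1 and pfas-1.

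Neighbouring pathways of nucleotide and one-carbon metabolism showed single genes with separate groups. Of 18 pyrimidine and deoxynucleotide genes (median log2 fold change -0.05, 0.05 without purH replicate 1), 1 was higher and 0 lower at an unadjusted p under 0.05. The shares over all genes were 5.43% and 1.74%. The higher gene was dhp-1, a dihydropyrimidinase of pyrimidine breakdown. It had 10.9, 5.29 and 4.00 CPM on the purH diet and 3.56, 2.45 and 2.48 CPM on the BW25113 diet (log2 fold change 1.26 ± 0.44, and 0.77 ± 0.51 without purH replicate 1). dhod-1, dihydroorotate dehydrogenase, had 13.3, 7.41 and 7.79 CPM on the purH diet and 5.25, 6.31 and 8.06 CPM on the BW25113 diet. Among 9 nucleoside transporter genes (median 0.11, 0.01 without purH replicate 1), ent-1 had 42.6, 167 and 201 CPM on the purH diet and 199, 329 and 307 CPM on the BW25113 diet, an overlap by a narrow margin. ent-5 had 10.4, 12.7 and 21.3 CPM on the purH diet and 23.5, 29.9 and 22.8 CPM on the BW25113 diet, lower with no overlap. 2 other members were higher with no overlap and were looked up for that reason. Over all genes, 5.94% were higher and 5.59% lower with no overlap. ent-4 had 5.13, 8.35 and 5.50 CPM on the purH diet and 4.84, 4.23 and 4.81 CPM on the BW25113 diet (log2 fold change 0.45 ± 0.37). slc-28.2 had 0.483, 0.570 and 0.5 CPM on the purH diet and 0.233, 0.306 and 0.310 CPM on the BW25113 diet, at 4 to 19 counts per library.

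Of 14 folate and one-carbon genes tested, 9 were above 0 and 5 below (median log2 fold change 0.16, 0.30 without purH replicate 1). 2 were higher at an unadjusted p under 0.05, against 5.43% of all genes. Both were H proteins of the glycine cleavage system. gcsh-1 had 11.13, 19.1 and 21.6 CPM on the purH diet and 6.59, 6.13 and 13.6 CPM on the BW25113 diet. gcsh-2 had 103, 59.7 and 93.4 CPM on the purH diet and 60.3, 51.1 and 32.5 CPM on the BW25113 diet. In each of the 2 genes 1 pair of libraries overlapped.

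Of 18 methionine cycle and transsulfuration genes, 11 were above 0 and 7 below (median log2 fold change 0.28). 2 were higher at an unadjusted p under 0.05, against 5.43% of all genes, and 10 were lowest of the 6 in purH replicate 1. Without that library 14 were above 0, the median was 0.53 and 8 of 18 were higher at an unadjusted p under 0.05, against 6.92% of all genes in that fit, with 0 passing the adjusted test. Without purH replicate 3 the median was 0.08. cth-1 (V, 16100680 to 16102750), a cystathionine gamma-lyase that makes cysteine, had 35.1, 131 and 167 CPM in the purH libraries, against 39.8, 30.0 and 20.5 CPM in the BW25113 libraries. purH replicate 1 lay within the BW25113 range, and the other 2 purH libraries lay far above it. Its log2 fold change was 1.88 ± 0.58 (edgeR p 0.00318 unadjusted, 0.572 adjusted) and 2.35 ± 0.62 without purH replicate 1 (edgeR p 0.000832 unadjusted, 0.576 adjusted). cysl-1, a cysteine synthase-like protein, had 23.2, 36.9 and 19.5 CPM on the purH diet and 16.1, 15.3 and 17.1 CPM on the BW25113 diet, with no overlap.

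Genes of propionate breakdown and vitamin B12 use, whose shunt enzymes are known to respond to the B12 content of the bacterial diet, had a median log2 fold change of -0.18 over 14 genes (0.04 without purH replicate 1). 0 were under 0.05 unadjusted. The shunt genes hach-1 and hphd-1 had 161 ± 66.0 and 342 ± 220.0 CPM on the purH diet, against 249 ± 41.3 and 555 ± 127 CPM on the BW25113 diet (SD, n = 3 each). Both were lowest in purH replicate 1. hach-1 had no overlap between diets.

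The 4 lists of energy metabolism had median log2 fold changes between -0.31 and 0.05 with all libraries, against 0.18 over all genes. Of 17 genes of the AMPK and TOR pathways, 13 were below 0 both with and without that library, with a median log2 fold change of -0.31 with it and -0.08 without. aak-2, a catalytic subunit of AMPK, had 4.85, 22.7 and 24.2 CPM on the purH diet and 31.8, 33.7 and 29.6 CPM on the BW25113 diet (log2 fold change -0.88 ± 0.42, and -0.39 ± 0.32 without purH replicate 1). crtc-1, a transcriptional coactivator downstream of AMPK, had 8.18, 12.7 and 16.9 CPM on the purH diet and 25.8, 23.4 and 15.3 CPM on the BW25113 diet. The diets did not overlap for aak-2 and overlapped for crtc-1.

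In the glyoxylate cycle and gluconeogenesis list, 16 of 17 genes were lowest of the 6 libraries in purH replicate 1. The median was -0.20 with it and 0.23 without it. icl-1 (V, 724332 to 728004), the bifunctional glyoxylate cycle enzyme that lets worms turn fat into sugar, had 85.0, 209.6 and 289 CPM in the purH libraries, against 1070.0, 608 and 215 CPM in the BW25113 libraries. The diets overlapped through purH replicate 3 and BW25113 replicate 3. The log2 fold change was -1.70 ± 0.51 (edgeR p 0.00250 unadjusted, 0.572 adjusted), and -1.29 ± 0.52 without purH replicate 1.

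Fasting and lipid breakdown genes (25 tested) had a median of -0.06 (-0.14 without purH replicate 1). cpt-1, a carnitine palmitoyltransferase of fat oxidation, had 31.8, 71.7 and 93.9 CPM on the purH diet and 168, 136 and 104.1 CPM on the BW25113 diet, with no overlap. hacd-1 had 79.1, 201 and 227 CPM on the purH diet and 97.9, 105 and 105 CPM on the BW25113 diet. Of 18 fatty acid synthesis genes, 12 were above 0 (median 0.05) and, without purH replicate 1, 16 (median 0.39). fat-6, a stearoyl-CoA desaturase, had 234, 324 and 397 CPM on the purH diet and 206, 152 and 227 CPM on the BW25113 diet. The groups did not overlap (log2 fold change 0.71 ± 0.32, and 0.92 ± 0.34 without purH replicate 1).

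Cuticle collagens had the highest median of the 43 lists with all libraries in the fit. Of 155 tested, 120 were above 0, with a median log2 fold change of 1.48 against 0.18 over all genes, and 40 were higher and 1 lower at an unadjusted p under 0.05, against 5.43% and 1.74% of all genes. 0 passed the adjusted test. The 3 purH libraries did not share this level. The mean level of the list, as log2 CPM relative to the 33 libraries, was -1.96, 0.69 and 0.59 in purH replicates 1 to 3, against -0.50, -1.01 and -0.58 in BW25113 replicates 1 to 3. In purH replicate 1, 103 of the 155 were lower than in the other 5 libraries. Without it the median was 1.88, and 81 were higher and 3 lower at an unadjusted p under 0.05. The shares over all genes in that fit were 6.92% and 1.53%. Without purH replicate 2 the median was 0.66, and without purH replicate 3 it was 1.13. Only 5 collagens were higher and 4 lower with no overlap among all 6 libraries, a share below the background of all genes.

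dpy-13 (IV, 4235614 to 4236710), a collagen needed for normal body length, had 3.28, 843 and 293 CPM in the purH libraries, against 66.1, 27.1 and 135 CPM in the BW25113 libraries. dpy-4, another body-shape collagen, had 3.94, 1141 and 369.7 CPM on the purH diet and 89.8, 47.2 and 199 CPM on the BW25113 diet. purH replicate 2 was the highest and purH replicate 1 the lowest of the 6 in both genes. The lowest p in the list belonged to col-183 and col-72, which were high in 1 library only: col-183 had 0.0762, 0.366 and 27.9 CPM on the purH diet and 0.291, 0.184 and 0.207 CPM on the BW25113 diet. Its log2 fold change was 5.33 ± 1.66 with all libraries and -0.12 without purH replicate 3. Many collagens are close paralogs, and nothing used here states how reads shared between genes were counted.

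Other cuticle genes did not follow the collagens. Larval and molting genes (40 tested) had a median log2 fold change of 0.19 (-0.12 without purH replicate 1). At an unadjusted p under 0.05, 4 were higher and 2 lower, against 5.43% and 1.74% of all genes. wrt-4, a hedgehog-related gene of the epidermis, had 3.61, 16.4 and 4.71 CPM on the purH diet and 1.69, 1.29 and 2.17 CPM on the BW25113 diet, with no overlap. grl-15, another hedgehog-related gene, had 3.51, 5.21 and 0.357 CPM on the purH diet and 1.05, 0.306 and 0.258 CPM on the BW25113 diet. Of 31 cuticlins, which form alae and other cuticle layers, 20 were above 0 with a median of 0.19, but 22 were below 0 without purH replicate 1, with a median of -0.82. In purH replicate 1, 17 of the 31 were higher than in the other 5 libraries. cutl-15 and cut-1 had the lowest p, and cut-1 was high in purH replicate 3 only (11.7 CPM, against 0 and 0.0814 CPM in purH replicates 1 and 2 and 0.245 to 0.408 CPM on the BW25113 diet).

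Reproductive genes differed by type. Sperm genes lay above 0 in 41 of 44, with a median log2 fold change of 1.25 and 1.87 without purH replicate 1. At an unadjusted p under 0.05 there was 1 higher with all libraries and 11 higher without that library, against 5.43% and 6.92% of all genes. 0 passed the adjusted test in either fit. The median was 0.30 without purH replicate 2. The mean level was -2.06, 1.09 and 0.07 in purH replicates 1 to 3, against -0.91, -1.06 and -0.33 in BW25113 replicates 1 to 3. purH replicate 1 thus had the lowest and purH replicate 2 the highest level of the 6. 1 gene of the list showed no overlap on the higher side, against 5.94% of all genes. The summed CPM of the list was 199, 3475 and 3112 in the purH libraries and 918, 778 and 1285 in the BW25113 libraries. spe-6, a kinase of spermatogenesis, had 3.76, 5.29 and 2.07 CPM on the purH diet and 2.39, 2.27 and 2.22 CPM on the BW25113 diet. spe-46 had 0.457, 4.48 and 1.93 CPM on the purH diet and 0.408, 0.490 and 1.24 CPM on the BW25113 diet. In whole-body RNA, fewer cells of a type and less RNA per cell cannot be told apart.

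Oocyte and yolk genes lay on the other side. Of 37 eggshell and oocyte genes, 35 were below 0 (median log2 fold change -0.85) and 34 without purH replicate 1 (median -0.42). The median was -1.35 without purH replicate 3. 11 of the 37 were lower on the purH diet with no overlap, against 5.59% of all genes, but 0 were lower at an unadjusted p under 0.05 and 33 were lowest in purH replicate 1. The mean level was -1.69, -0.13 and 0.37 in the purH libraries and 0.30, 0.64 and 0.59 in the BW25113 libraries. purH replicate 3 lay within the BW25113 range. gld-1 (I, 7695681 to 7698222), an RNA-binding regulator of oocyte development, had 5.11, 711 and 826 CPM on the purH diet and 1017, 1313 and 1412 CPM on the BW25113 diet. mbk-2, a kinase of the change from oocyte to embryo, had 48.3, 125 and 138 CPM on the purH diet and 181, 217 and 232 CPM on the BW25113 diet. cpg-7 went the other way, with 12.2, 74.1 and 50.9 CPM on the purH diet and 18.9, 16.5 and 18.0 CPM on the BW25113 diet.

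All 6 vitellogenins, the yolk proteins that the intestine makes for the oocytes, were below 0, with a median of -1.1 and -0.55 without purH replicate 1. It was -1.91 without purH replicate 3. 0 were under 0.05 unadjusted. vit-2 (X, 5101042 to 5106169) had 1537, 11902 and 22147 CPM in the purH libraries, against 23024, 26735 and 25067 CPM in the BW25113 libraries. vit-4 had 827, 4841 and 9639.8 CPM on the purH diet and 8795, 13657 and 13273 CPM on the BW25113 diet. The purH libraries spread over more than the distance between the diets, with replicate 1 at the bottom and replicate 3 close to or within the BW25113 range.

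Embryo and histone genes were lower in part. Of 27 embryo genes tested, 19 were below 0 (median log2 fold change -0.29), 4 were lower at an unadjusted p under 0.05 and 6 were lower with no overlap, against 1.74% and 5.59% of all genes. Leaving out purH replicate 1 put 24 below 0 (median -0.68), with 1 lower at an unadjusted p under 0.05, against 1.53% of all genes. Without purH replicate 2 the median was -0.05. tbx-8, a T-box transcription factor of the embryo, had 0.584, 0.244 and 0.929 CPM in the purH libraries, against 3.21, 3.00 and 1.86 CPM in the BW25113 libraries (log2 fold change -2.22 ± 0.90, and -2.21 ± 1.04 without purH replicate 1). die-1, a zinc finger factor of embryonic morphogenesis, had 12.1, 26.5 and 24.8 CPM on the purH diet and 40.4, 50.6 and 56.2 CPM on the BW25113 diet. Both had no overlap. Of 31 histone genes, 25 were below 0 (median -0.45) and 23 without purH replicate 1 (median -0.40), with 5 lower at an unadjusted p under 0.05 (1.74% of all genes) and 7 with no overlap (5.59% of all genes). The count of 5 became 3 without purH replicate 1, against 1.53% of all genes in that fit. Leaving out BW25113 replicate 2 gave a median of -0.23. hil-3, a linker histone, had 55.6, 29.6 and 75.1 CPM on the purH diet and 199, 206 and 102 CPM on the BW25113 diet (log2 fold change -1.66 ± 0.68). As for hil-2, which is described above, all 3 purH libraries were lower. Core histone genes are near-identical copies, so reads may be shared among them.

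**Figure D4:**
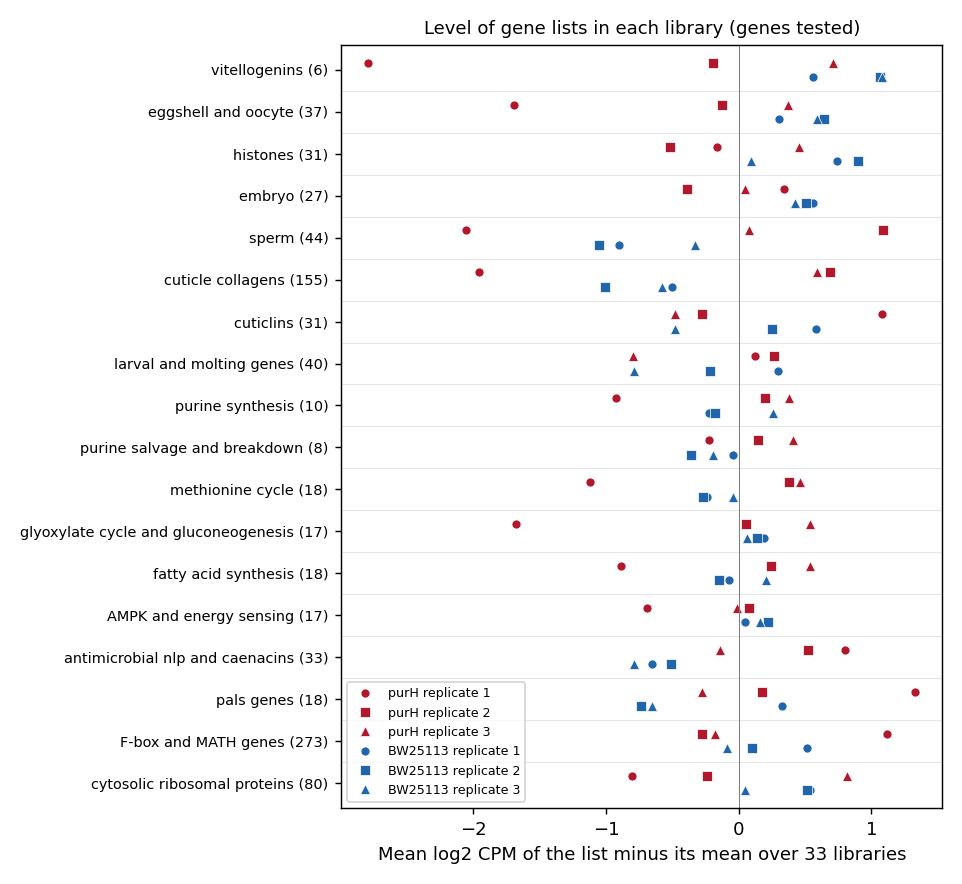
Mean level of gene lists (x axis, log2 CPM relative to the mean over 33 libraries, averaged over the tested genes of the list) in each of the 3 purH and 3 BW25113 libraries, 1 row per list (y axis). For collagens, sperm genes and vitellogenins purH replicate 1 lies far to the left at -1.96, -2.06 and -2.79, while for the antimicrobial nlp and caenacin list the 3 purH libraries all lie to the right of the BW25113 libraries.

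Ribosomal protein, proteasome and respiratory chain genes had medians below 0 with all libraries and between -0.09 and 0.10 without purH replicate 1. Of 80 cytosolic ribosomal protein genes, 63 were below 0 (median log2 fold change -0.27) with all libraries. Without purH replicate 1, 41 were above and 39 below (median 0.01). Without purH replicate 3 the median was -0.96. 0 were under 0.05 unadjusted in either fit, and 55 were lowest in purH replicate 1. rpl-3 had 645, 2569 and 4816 CPM on the purH diet and 4704, 5004 and 5017 CPM on the BW25113 diet, and the short rpl-41.1 had 70.0, 37.9 and 72.8 CPM on the purH diet and 43.3, 39.8 and 35.7 CPM on the BW25113 diet. Proteasome subunits (32 tested) had a median of -0.43 (-0.09 without purH replicate 1, with 10 above and 22 below), with rpn-13 at 34.2, 109 and 230.0 CPM on the purH diet and 267, 249 and 221 CPM on the BW25113 diet. Respiratory chain genes (48 tested) had a median of -0.19 (0.10 without purH replicate 1, with 36 above and 12 below), with nuo-6 at 140.5, 88.2 and 141 CPM on the purH diet and 107, 77.2 and 58.2 CPM on the BW25113 diet. Cathepsins and aspartyl proteases (19 tested), which digest food and work in lysosomes, had a median of -0.40 (0.03 without purH replicate 1). cpr-4, a cathepsin B family protease, had 431, 737 and 1609 CPM on the purH diet and 2554, 2007 and 1217 CPM on the BW25113 diet.

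Antimicrobial peptide genes of the epidermis were on average higher in each purH library than in any BW25113 library. The list joins nlp genes, caenacins and fip-related genes, which encode small secreted peptides. Of 33 tested, 31 were above 0, with a median log2 fold change of 1.11, and 12 were higher with no overlap, against 5.94% of all genes. 7 were higher at an unadjusted p under 0.05, against 5.43% of all genes. 0 passed the adjusted test. The mean level was 0.80, 0.53 and -0.14 in purH replicates 1 to 3, against -0.65, -0.51 and -0.79 in BW25113 replicates 1 to 3. Without purH replicate 1, 27 were above 0 (median 0.80) and 4 higher at an unadjusted p under 0.05, against 6.92% of all genes. 16 of the 33 were highest in purH replicate 1, in which genes of up to 500 nt were high in general (median deviation 0.36). The part of that shift in the list was not tested.

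nlp-25 (V, 19606180 to 19608419) had the lowest unadjusted p of all genes tested, and was looked up for that reason. It had 1.68, 0.977 and 1.07 CPM in the purH libraries, against 0.0583, 0.184 and 0.103 CPM in the BW25113 libraries, a low level in all. The log2 fold change was 3.39 ± 0.75 (edgeR p 0.000108 unadjusted, 0.572 adjusted) and 3.15 ± 0.86 without purH replicate 1, so the difference did not rest on that library. fipr-4 had 9.60, 7.09 and 2.14 CPM on the purH diet and 0.641, 0.735 and 0.878 CPM on the BW25113 diet, with no overlap (log2 fold change 3.06 ± 0.90, and 2.67 ± 0.98 without purH replicate 1). nlp-27 had 109, 78.5 and 87.9 CPM on the purH diet and 42.7, 69.8 and 70.4 CPM on the BW25113 diet. cnc-8, given above, belongs to the same list. Besides nlp-25 and the cyp-35 genes described below, the lowest unadjusted p belonged to pdcd-2, tbb-6 and K11H12.11, also looked up after the fit. pdcd-2 had 0, 0.122 and 0 CPM on the purH diet and 0.816, 1.04 and 1.45 CPM on the BW25113 diet. tbb-6, a tubulin gene, had 5.46, 2.32 and 1.86 CPM on the purH diet and 0.933, 0.674 and 0.568 CPM on the BW25113 diet. K11H12.11 had 3.96, 1.06 and 0.714 CPM on the purH diet and 0.466, 0.552 and 0.362 CPM on the BW25113 diet. All 3 had no overlap, and K11H12.11 was highest in purH replicate 1.

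Other defence lists were mixed. Of the C-type lectins tested, 74 were above 0 and 40 below (median log2 fold change 0.25, 0.33 without purH replicate 1). At an unadjusted p under 0.05, 9 were higher and 4 lower, against 5.43% and 1.74% of all genes. Without purH replicate 1, 11 were higher and 1 lower, against 6.92% and 1.53% of all genes in that fit. clec-41 had 473, 119.2 and 107 CPM on the purH diet and 118.8, 107 and 44.4 CPM on the BW25113 diet, high in purH replicate 1 only. Pathogen response genes (45 tested) had a median of 0.21 (0.18). dod-24, a gene of the intestinal defence response, had 15.0, 29.1 and 14.8 CPM on the purH diet and 5.13, 8.58 and 4.55 CPM on the BW25113 diet, with no overlap (log2 fold change 1.69 ± 0.67). irg-5 had 7.82, 11.5 and 2.93 CPM on the purH diet and 3.79, 2.57 and 2.12 CPM on the BW25113 diet. Lysozymes (12 tested), which break bacterial cell walls, had a median of -0.21 (-0.04). Against that, lys-2 had 275, 231 and 182 CPM on the purH diet and 179, 114.2 and 48.3 CPM on the BW25113 diet, and lys-1 had 442, 653 and 638 CPM on the purH diet and 415, 445 and 233 CPM on the BW25113 diet. lys-2 had no overlap, by a narrow margin.

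In 2 families of expanded genes the direction of the list came from purH replicate 1. All 18 pals genes tested, known from the response to intracellular pathogens, were above 0 with all libraries (median log2 fold change 0.78), and 16 were highest in purH replicate 1. Without it 9 were above and 9 below 0 (median -0.03). pals-34 had 1.75, 1.303 and 1.5 CPM on the purH diet and 1.11, 0.674 and 0.465 CPM on the BW25113 diet. pals-24 had 3.20, 3.87 and 4.64 CPM on the purH diet and 2.22, 0 and 0 CPM on the BW25113 diet. These 2 genes had no overlap and did not rest on replicate 1. Of 273 F-box and MATH genes, which encode adaptors for protein degradation, 200 were above 0 (median 0.33), and 199 were highest in purH replicate 1. Without it 182 were below 0 (median -0.29). bath-45 had 8.31, 0.611 and 1.5 CPM on the purH diet and 1.63, 0.735 and 0.465 CPM on the BW25113 diet, and fbxa-190 had 2.72, 0.855 and 1.5 CPM on the purH diet and 0.816, 0.306 and 0.672 CPM on the BW25113 diet.

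Of 59 cytochrome P450 genes tested, 43 were above 0 (median log2 fold change 0.32), but 31 above and 28 below without purH replicate 1 (median 0.05). 5 were lower and 2 higher at an unadjusted p under 0.05, a split opposite to that of all genes (1.74% lower, 5.43% higher). The lower genes were cyp-35A1, cyp-35A2, cyp-35A3, cyp-35A4 and cyp-35C1, so the split rested on the cyp-35 subfamily. cyp-35A3 (V, 4022609 to 4024482), of a subfamily known to be induced by foreign compounds, had 0.0762, 0.163 and 0.429 CPM in the purH libraries, against 4.43, 1.59 and 9.51 CPM in the BW25113 libraries. All 3 purH libraries were lower by a wide margin. The log2 fold change was -4.70 ± 1.21 (edgeR p 0.000608 unadjusted, 0.572 adjusted), and -4.17 ± 1.43 without purH replicate 1. In the libraries of the other mutant diets cyp-35A3 had a median of 2.01 CPM, with a range of 0.0444 to 13.8 CPM. cyp-35A2 (V, 7362319 to 7364182) had 8.99, 5.86 and 19.6 CPM on the purH diet and 33.6, 31.4 and 36.2 CPM on the BW25113 diet, again with no overlap (log2 fold change -1.56 ± 0.53, and -1.38 ± 0.62 without purH replicate 1).

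The rest of the cyp-35 subfamily was chosen for description after its values had been seen. cyp-35A4 (V, 4031619 to 4033446) was at 0 in all 3 purH libraries and had 0.175, 0.613 and 1.65 CPM in the BW25113 libraries, 0 against 45 counts in all. With a floor of 3 counts over the purH group it was at least 22.1-fold lower on the purH diet. cyp-35A1 had 0, 0.0407 and 0 CPM on the purH diet and 0.350, 0.0613 and 0.258 CPM on the BW25113 diet. cyp-35A5 had 1.70, 2.97 and 1.29 CPM on the purH diet and 5.71, 2.51 and 3.98 CPM on the BW25113 diet. cyp-35C1 had 7.65, 4.15 and 5.36 CPM on the purH diet and 14.1, 7.23 and 16.7 CPM on the BW25113 diet. The 2 last genes overlapped by 1 pair of libraries. cyp-35B1, cyp-35B2 and cyp-35D1 overlapped more widely, with log2 fold changes of 0.96 ± 0.72, -0.06 ± 1.1 and -0.69 ± 0.55. DESeq2 called cyp-35A3 and cyp-35A4 with an adjusted p of 0.0419 each, and edgeR's adjusted p for both was 0.572. The cyp-35A genes are close paralogs, and reads could be assigned to the wrong copy. The third DESeq2 call, gtf-2H2C, was at 0 in all purH libraries and in BW25113 replicate 1, with 14.9 and 3.98 CPM in BW25113 replicates 2 and 3, so the groups touched at 0. Its exons overlap hal-2.

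Conjugating enzymes were more often above 0 than below. Of 101 glutathione and glucuronosyl transferases tested, 76 were above 0 (median log2 fold change 0.41) and 65 without purH replicate 1 (median 0.36), with 5 higher and 0 lower at an unadjusted p under 0.05. That count of 5 in 101 is close to the 5.43% higher among all genes. gst-19 had 4.72, 7.17 and 3.79 CPM on the purH diet and 0.991, 0.797 and 0.155 CPM on the BW25113 diet (log2 fold change 3.02 ± 1.22, and 3.15 ± 1.34 without purH replicate 1). The groups did not overlap. Heat shock and unfolded protein genes (36 tested) had a median of -0.13 (-0.05). hsp-12.1 had 41.7, 2.24 and 3.21 CPM on the purH diet and 7.64, 7.42 and 1.81 CPM on the BW25113 diet, and hsp-16.48 had 61.6, 4.68 and 9.36 CPM on the purH diet and 6.41, 16.9 and 7.34 CPM on the BW25113 diet. These 2 small heat shock genes were high in purH replicate 1 only. Catalases and superoxide dismutases (10 tested) had a median of -0.08 (0.14), with ctl-3 at 6.65, 19.2 and 36.3 CPM on the purH diet and 65.7, 58.2 and 32.6 CPM on the BW25113 diet. Metallothionein and metal genes (10 tested) had a median of 0.09 (0.07), with mtl-2 at 17.9, 8.55 and 7.21 CPM on the purH diet and 16.7, 16.2 and 14.2 CPM on the BW25113 diet. smf-3, a metal ion transporter, had 1.19, 9.65 and 3.21 CPM on the purH diet and 1.22, 2.57 and 3.82 CPM on the BW25113 diet, high in purH replicate 2 only.

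Genes of the nervous system that bear on behavior showed small differences. The oxygen sensing and social feeding circuit (19 of 28 genes in the files tested) had a median log2 fold change of -0.11 (-0.05 without purH replicate 1), with 7 above 0 and 12 below in both fits. 0 passed the adjusted test, and 1 was higher and 0 lower at an unadjusted p under 0.05, against 5.43% and 1.74% of all genes. The higher one was exp-1, looked up for that reason, with 0.457, 0.366 and 0.286 CPM on the purH diet and 0, 0 and 0.258 CPM on the BW25113 diet. It had at most 18 counts in a library, its groups did not overlap (log2 fold change 1.98 ± 0.88), and its exons overlap those of abts-3. daf-1, a TGF-beta receptor, had 5.36, 15.6 and 20.5 CPM on the purH diet and 22.7, 26.5 and 26.6 CPM on the BW25113 diet, with no overlap (log2 fold change -0.87 ± 0.46, and -0.44 ± 0.41 without purH replicate 1). egl-4, a cGMP-dependent protein kinase, had 32.7, 195 and 172 CPM on the purH diet and 147, 222 and 273 CPM on the BW25113 diet. Of 103 neuropeptide genes, 54 were above 0 and 49 below (median 0.04, 0.09 without purH replicate 1), and 10 were higher and 0 lower with no overlap, against 5.94% and 5.59% of all genes. 7 of the 103 also belong to the antimicrobial list of the epidermis, and 4 of the 10 separate genes, nlp-27 among them, are of these 7. nlp-56 had 1.73, 3.83 and 5.00 CPM on the purH diet and 8.22, 6.56 and 4.65 CPM on the BW25113 diet.

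Of 18 dopamine genes tested, 12 were above 0 with and without purH replicate 1 (median 0.34 and 0.44). 1 was higher at an unadjusted p under 0.05, against 5.43% of all genes. Without purH replicate 2 the median was -0.0038. cat-4 (V, 10564880 to 10566464), the GTP cyclohydrolase that makes the cofactor for dopamine and serotonin synthesis from a purine nucleotide, had 27.9, 27.2 and 22.6 CPM in the purH libraries, against 17.2, 11.34 and 17.4 CPM in the BW25113 libraries. The groups did not overlap, and purH replicate 1 lay with replicate 2 (log2 fold change 0.76 ± 0.42, edgeR p 0.0790 unadjusted, 0.572 adjusted). In the libraries of the other mutant diets cat-4 had a median of 21.2 CPM, with a range of 9.17 to 48.9 CPM. bas-1, the decarboxylase of both transmitters, had 9.19, 15.2 and 20.2 CPM on the purH diet and 10.3, 10.5 and 10.6 CPM on the BW25113 diet. Of 16 serotonin, octopamine and tyramine genes, 5 were above 0 (median -0.14) and 11 without purH replicate 1 (median 0.05). ser-7, a serotonin receptor, had 0.254, 1.43 and 1.14 CPM on the purH diet and 1.05, 2.64 and 2.07 CPM on the BW25113 diet. lgc-55, a tyramine-gated chloride channel, had 1.14, 1.26 and 1.36 CPM on the purH diet and 0.991, 0.797 and 0.672 CPM on the BW25113 diet, with no overlap.

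Among the remaining lists, 10 kynurenine pathway genes had purH libraries close to each other. Their mean level was 0.05, 0.10 and 0.13 in the purH libraries and -0.20, -0.33 and -0.22 in the BW25113 libraries. The median log2 fold change was 0.62 (0.33 without purH replicate 1). 2 genes were higher at an unadjusted p under 0.05, against 5.43% of all genes. The 2 were kynu-1, given above, and tdo-2, the dioxygenase that opens tryptophan breakdown, at 24.0, 19.0 and 13.6 CPM on the purH diet and 7.52, 5.82 and 13.7 CPM on the BW25113 diet. tdo-2 overlapped by a narrow margin in 1 pair of libraries. Hypoxia response genes (13 tested, median 0.17, 0.01 without purH replicate 1) had 3 higher and 1 lower at an unadjusted p under 0.05. The shares over all genes were 5.43% and 1.74%. F22B5.4, a known target of HIF-1, had 3.25, 3.83 and 6.57 CPM on the purH diet and 1.57, 2.08 and 1.24 CPM on the BW25113 diet, with no overlap (log2 fold change 1.47 ± 0.54, and 1.71 ± 0.63 without purH replicate 1). phy-2 and cysl-1, both given above, are the other 2 higher genes of this list.

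Of 178 nuclear hormone receptors tested, 117 were above 0 (median 0.30, 0.05 without purH replicate 1). At an unadjusted p under 0.05, 5 were higher and 5 lower, against 5.43% and 1.74% of all genes. Without that library 2 were higher and 1 lower, against 6.92% and 1.53% of all genes. nhr-13 had 3.48, 4.36 and 4.71 CPM on the purH diet and 6.65, 8.40 and 8.27 CPM on the BW25113 diet, and nhr-92 had 3.07, 2.65 and 3.43 CPM on the purH diet and 1.57, 1.84 and 1.09 CPM on the BW25113 diet. Both had no overlap and close replicates. Insulin-like peptides (30 tested) had a median of 0.27 (0.26), with ins-29 at 7.85, 1.87 and 3.07 CPM on the purH diet and 2.099, 1.78 and 0.982 CPM on the BW25113 diet. Dauer and longevity genes (21 tested) had a median of 0.00 (-0.08). pdk-1, a kinase of insulin signalling, had 6.43, 5.90 and 6.93 CPM on the purH diet and 13.2, 13.1 and 10.1 CPM on the BW25113 diet, with no overlap (log2 fold change -0.92 ± 0.41, and -0.87 ± 0.43 without purH replicate 1). daf-36, an oxygenase of steroid hormone synthesis, had 7.65, 4.32 and 5.86 CPM on the purH diet and 4.20, 2.39 and 3.05 CPM on the BW25113 diet.

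Marker lists of cell types lay on the same side of 0 as some of the lists above and on the other side from others. The sperm markers and the oocyte and eggshell markers are genes of the same kinds as the lists above. A shared side there is no separate result. Sperm cell markers (11 of 11 above 0 in log2 fold change) had a median of 1.33, and 1.95 without purH replicate 1, and their summed level was 51.3, 1619 and 1516 CPM in the purH libraries, against 413, 353 and 615 CPM in the BW25113 libraries. Markers of oocytes and eggshell were below 0 in 12 of 12 (median -0.95 and -0.48), and germline markers in 11 of 14 (median -0.66 and -0.29). Intestine markers had a median of -0.18 and 0.20, body wall muscle -0.30 and 0.04, pharynx -0.16 and 0.27, and epidermis -0.45 and -0.63. Neuron markers had 0.26 and 0.04, somatic gonad and spermatheca -0.12 and 0.07, coelomocytes -0.09 and -0.28, and embryo cells -0.22 and -1.0. In intestine, muscle, pharynx and somatic gonad the sign of the median thus changed when purH replicate 1 was left out, and in sperm cells, oocytes, germline, epidermis, neurons, coelomocytes and embryo cells it did not. Epidermis markers were below 0 in median, while the collagens and antimicrobial peptides of that tissue were above 0. The epidermis markers include the collagens dpy-7, bli-1, rol-6, col-19 and col-10, so they are no independent measure of the tissue. Intestine markers were above 0 in median without purH replicate 1, and the vitellogenins below. No marker of any list was at 0 in all 6 libraries. The part of the makeup of cells in the lists above was not tested.

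Single genes set purH replicate 1 apart from the other purH libraries. They were picked for that gap, among those averaging at least 20 CPM, so the values are a description. The 8 farthest below were otub-1, col-17, dpy-4, dpy-13, gld-1, sqt-1, col-154 and col-73, of which 6 are collagens. Besides otub-1, they lay at -6.86 to -7.47 on the log2 scale. otub-1, a deubiquitinating enzyme, had 0 CPM in purH replicate 1, against 19.5 and 70.8 CPM in purH replicates 2 and 3, and 41.7, 55.6 and 28.5 CPM in the BW25113 libraries. With a floor of 3 counts in that library, it was at least 256-fold lower than in purH replicate 2. sqt-1, a body-shape collagen, had 0.381 CPM in purH replicate 1, against 101 and 32.1 CPM in purH replicates 2 and 3, and 5.77, 2.94 and 12.3 CPM in the BW25113 libraries. The 8 farthest above, by 2.39 to 2.97, were noah-1, aps-3, ubl-5, dod-3, taf-7.2, pud-4, hmg-11 and spp-15. aps-3 (I, 1154514 to 1156020), an adaptor subunit of vesicle coats, had 1340.2 CPM in purH replicate 1, against 103 and 295 CPM in purH replicates 2 and 3, and 353, 281 and 76.1 CPM in the BW25113 libraries. ubl-5, a ubiquitin-like protein of the mitochondrial stress response, had 214 CPM in purH replicate 1, against 23.9 and 32.6 CPM in purH replicates 2 and 3, and 40.6, 50.6 and 23.5 CPM in the BW25113 libraries. In each of these 8 genes the log2 fold change against BW25113 was above 0 with all libraries and below 0 without purH replicate 1.

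Set against the mean of the 9 other mutant diets, 22 genes (0.15%) passed the edgeR test at a Benjamini-Hochberg adjusted p under 0.05, all higher on the purH diet. In 21 of the 22 the highest purH library was replicate 1, and none of the 22 lay above all 27 libraries of the other mutants in all 3 purH libraries. Without purH replicate 1 the count was 0, without purH replicate 2 it was 204, and without purH replicate 3 it was 69. With the replicate number as a block it was 0. The genes named here were chosen after their values were seen. Y53H1B.4 had 7.34, 0.122 and 0.429 CPM in the purH libraries, against 0 to 0.858 CPM in the 27 libraries of the other mutants (log2 fold change 4.00 ± 0.57, edgeR adjusted p 0.00231). Only replicate 1 lay outside that range. aps-3, whose values are given above, had a log2 fold change of 2.16 in this comparison (edgeR adjusted p 0.0280), and clec-41 had 1.4 (edgeR adjusted p 0.0374). In both genes purH replicates 2 and 3 lay far below replicate 1.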

How the data were processed

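For each library the authors deposited a table of 18811 gene symbols with an expected count (estimated reads per gene) and a TPM value (abundance per length, set to a common total), per the file headers. The submitters' processing notes name HISAT, StringTie, Bowtie2 and WBcel235 (the build), without roles. The counting tool, its handling of shared reads and of strand, and the annotation release were not given. Between 7.78% and 10.0% of expected counts per library were not whole, and all were rounded. TPM values as deposited by the authors served only to compare levels between 2 genes.

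Symbols were matched to the Ensembl annotation of WBcel235, which gives the coordinates: 18102 by symbol and 536 by another name, with 173 unmatched. The filterByExpr function of edgeR removed genes of low count (4116 genes holding 0.0197% of counts). All 33 libraries were scaled by TMM and fitted by diet in edgeR 4.0.16 under R 4.3.3, so that the spread is shared over 11 diets (biological coefficient of variation 44.5%). The purH diet was contrasted with BW25113 and with the mean of the 9 other mutants by the quasi-likelihood test, at a Benjamini-Hochberg adjusted p under 0.05 over 14695 genes. The SE of a log2 fold change is its size over the square root of the F statistic. CPM use TMM-scaled library sizes, and log2 CPM a prior count of 2. The script was tested on simulated data. No pair of replicates within the purH or the BW25113 diet looked like the same library deposited again. Chi-square per degree of freedom over genes with at least 10 counts was 42.5 to 505. Pairs within the 9 other mutant diets were not checked.

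Named were the 8 genes with the lowest p each way with no overlap and on average at least 5 CPM, the 8 genes each way that set purH replicate 1 apart (at least 20 CPM), up to 2 members of each list with the lowest p (at least 1 CPM), and every member of the purine lists. A like rule for the other mutants found 0 genes. Genes outside the rule are said to be chosen after their values were seen. The comparison, the 43 gene lists and the 11 marker lists were chosen with earlier results of these data known. Alternatives were other scaling factors, other filters, DESeq2 1.42.0, a fit of the 6 libraries alone, a replicate block, and each library left out in turn. The 6 fits that leave out a library from the 6 libraries alone were added after seeing the data.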

Additional observations from a re-analysis of the deposited data

How the results depend on the processing

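Between purH and BW25113 the count of genes past the adjusted test was 0 under each of 19 other settings of edgeR, and 3 with DESeq2. At an unadjusted p under 0.05 the count of 1053 became 586 with the 6 libraries fitted alone and ranged between 556 (without BW25113 replicate 2) and 2199 (without purH replicate 3) when a library was left out of the joint fit. With the 6 libraries alone and each left out in turn, it was between 201 (without BW25113 replicate 2) and 1551 (without purH replicate 1). Its split of 798 higher and 255 lower was 881 and 388 with no filter and 545 and 346 with a stricter one. Upper-quartile factors moved the median of all genes by 0.16 on the log2 scale, with 68.7% of genes above 0. Against the other 9 mutants the count of 22 was between 16 and 24 with other factors, other filters and DESeq2, 8 without torY and yccU in the mean, and between 0 (without purH replicate 1) and 204 (without purH replicate 2) when a purH library was left out. The cause of these shifts was not tested.

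The replicate numbers did not pair the libraries throughout: deviations from the group means correlated at 0.38, -0.32 and 0.15 between purH and BW25113 libraries of equal number. Between purH and the other mutants they ranged between -0.54 and 0.63, and all 3 were over 0.1 for 4 of the 9 diets. With a replicate block the count against BW25113 was 0, in the joint fit and with the 6 libraries alone, and the count against the other 9 mutants was 0.

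Among the genes followed under every setting, the sign turned under at least 1 in 21, and the cause was not tested. Of the 16 genes picked for their gap in purH replicate 1, which were not followed in this way, 9 had another sign against BW25113 without that library. When a library was left out, the log2 fold change against BW25113 ranged between -0.17 and 0.94 for F38B6.4, -0.29 and 0.55 for pfas-1, -0.52 and 0.35 for T22D1.3, -0.13 and 0.17 for R151.2, -0.46 and 0.25 for gmps-1, -0.49 and 0.18 for pacs-1, and -0.44 and 0.17 for adsl-1. It ranged between -0.46 and 0.40 for ampd-1, -0.30 and 0.60 for adal-1, -0.34 and 0.38 for pnp-1, -0.0097 and 0.58 for ada-2, -0.12 and 5.93 for col-183, -3.14 and 4.10 for cut-1, -0.99 and 1.99 for hsp-12.1, -0.49 and 1.87 for hsp-16.48, -0.24 and 1.4 for smf-3, and -0.56 and 2.06 for cyp-35B2. Against the other mutants it ranged between -0.23 and 2.28 for gcl-1, -0.23 and 3.20 for W10D9.1, -0.39 and 5.00 for C10F3.7, and -0.49 and 2.49 for Y44E3A.1. Upper-quartile factors gave 0.024 for T22D1.3, 0.15 for R151.2, 0.036 for ampd-1, 0.093 for pnp-1 and 0.037 for cyp-35B2. R151.2 had 0.026 with a stricter filter, 0.038 with the 6 libraries alone and 0.0051 with the replicate block. pnp-1 had 0.00499 with DESeq2 size factors, 0.012 with no filter, 0.026 with a stricter filter, 0.0035 with DESeq2 and 0.037 with the 6 libraries alone. Of the other values of single genes against BW25113, 1560 kept their sign and side of the threshold, and 3 passed it with DESeq2.

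On data simulated for purH against BW25113 (14327 genes), the edgeR test found 4 of 50 genes changed 2-fold, 29 of 50 changed 4-fold and 42 of 50 changed 8-fold. It also called 5 unchanged genes. The simulated libraries shared a common mean for each unchanged gene and lacked the length-linked shift of purH replicate 1. These shares therefore do not measure the power of the test on the real libraries. At 20.5 to 22.5 M expected counts per library, values of genes with a few counts, such as cyp-35A1 and slc-28.2, rest on few reads. They are given only as a description.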
